A study of Mus musculus with 2 samples.

Results

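The mouse axon guidance genes examined here were 34 ligands and 34 receptors of the 4 classical ligand-receptor systems, taken by symbol from a table of 45578 genes. A gene was kept when its symbol belonged to the semaphorin (Sema), plexin (Plxn), neuropilin (Nrp), ephrin (Efn), Eph, Slit, Robo, netrin (Ntn), Dcc or Unc5 family and at least 1 of its transcripts was annotated as protein coding. The rule read symbols and annotation, not counts. The 68 genes comprised 20 semaphorins, 9 plexins, 2 neuropilins, 8 ephrins, 14 Eph receptors, 3 Slits, 4 Robo receptors, 3 netrins and 5 Dcc and Unc5 receptors. All 68 had footprints in both libraries.

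The footprints came from ribosome profiling, in which the stretches of mRNA shielded by translating ribosomes are sequenced and counted. Whole brains of control mice at postnatal day 5 were used, and the polysome fractions of their lysates were digested with RNase I and size-selected for fragments of 25 to 35 nucleotides. The mice were Taiwanese heterozygotes of genotype Smn+/-; SMN2tg/0 on an FVB background, so both animals lacked 1 functional copy of the mouse Smn gene and carried a human SMN2 transgene. There was 1 group of 2 samples, which the labels call biological replicates, with 1866831 footprints in replicate 1 and 5261878 in replicate 2. No other genotype, age or tissue was analysed here, so the comparisons are among the guidance genes, against all other genes, and between the 2 libraries.

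Axon guidance molecules steer growing axons and migrating neurons by attraction and repulsion. Semaphorins signal through plexins, and the secreted class 3 semaphorins bind neuropilins as co-receptors. Ephrins are tethered to the cell surface and signal to Eph receptor tyrosine kinases on neighbouring cells, with reverse signalling into the ephrin-bearing cell. Slits repel axons through Robo receptors, and netrins attract through Dcc or repel through Unc5 receptors. In the first postnatal week of the mouse, long tracts are still extending and being pruned, and synapses are forming.

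The 68 genes together took the same share of footprints in both animals. In replicate 1 they held 9793 footprints, 0.525% of the library (95% Clopper-Pearson interval 0.514 to 0.535%), and in replicate 2 they held 27709, 0.527% (0.520 to 0.533%). Intervals cover counting error only. Levels between genes were compared as footprint density, the footprints per kilobase of the longest annotated coding sequence, scaled to 1000000 footprints in the library. The median guidance gene had a density of 23.6 in replicate 1 and 22.4 in replicate 2, against 22.04 and 24.65 for the 13317 coding genes tested (those averaging 10 or more counts). Above that median in both libraries were 30 of the 68 genes, while 32 were at or below it in both and 6 changed sides. Only Efnb3 and Epha5 stood at or above percentile 80 of these genes in both libraries, and none of the 68 reached percentile 90 in both. In a whole brain, fewer cells making a gene and fewer footprints per cell cannot be told apart.

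**Figure D1:**
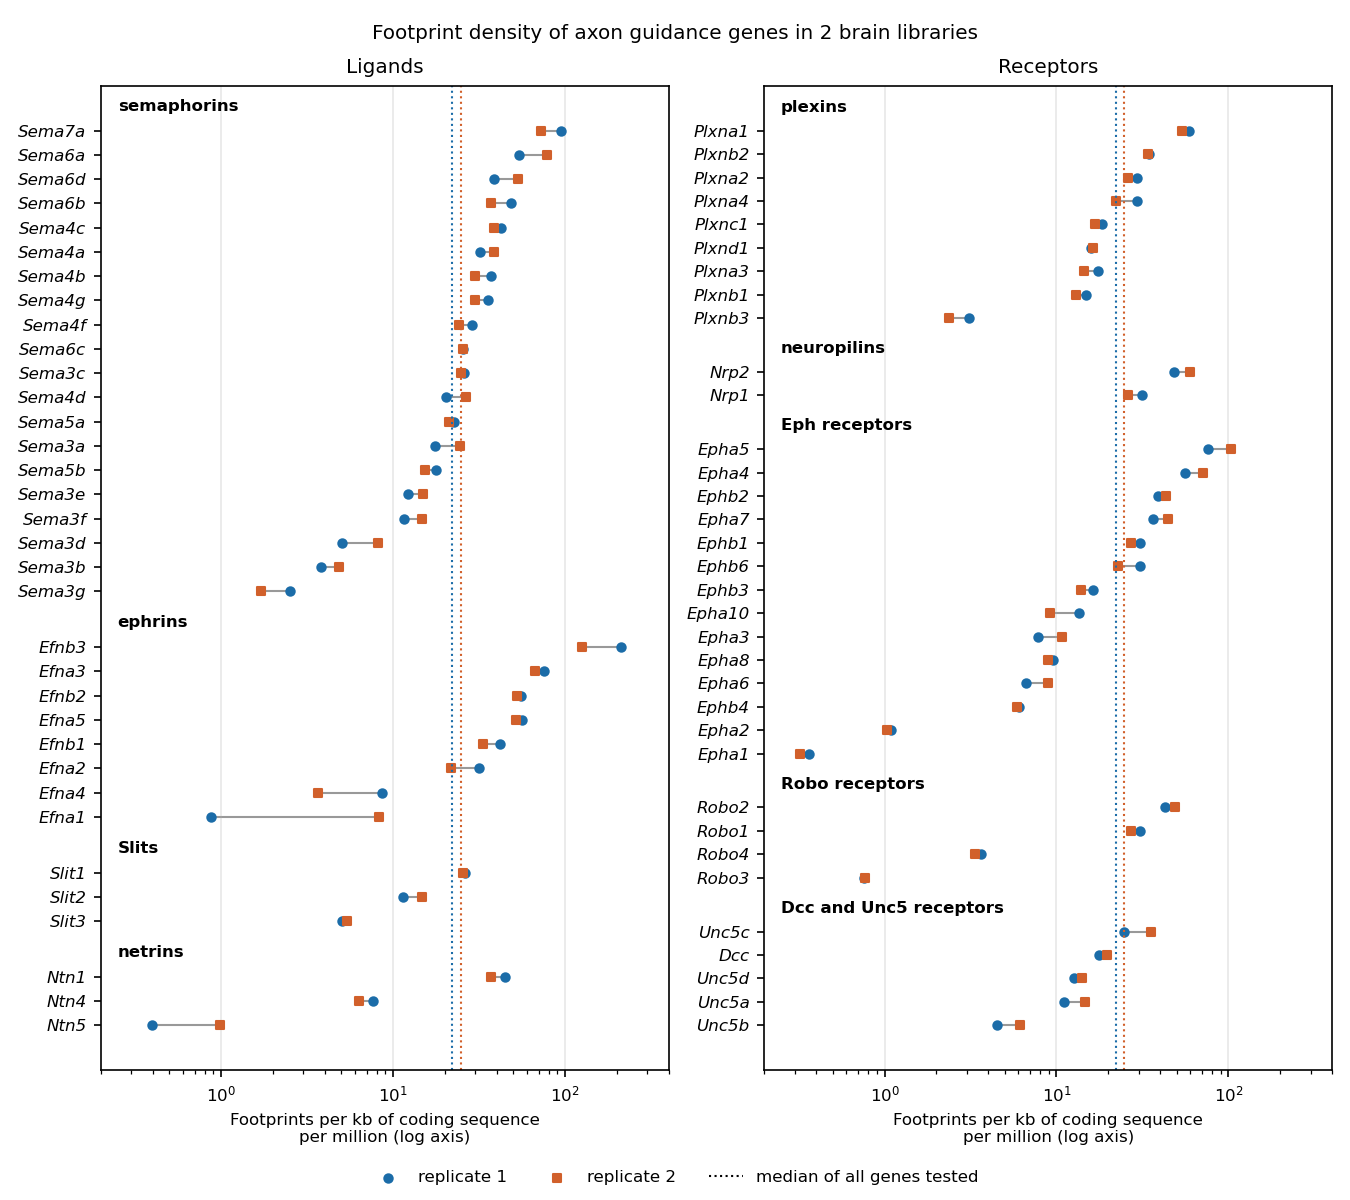
Footprint density of each guidance gene in replicate 1 (blue circles) and replicate 2 (orange squares), with ligands on the left and receptors on the right; the horizontal axis is logarithmic and the dotted lines are the medians of all coding genes tested, 22.04 and 24.65. Within each family genes are sorted by their mean, and the span runs from Epha1 (0.365 and 0.324) to Efnb3 (212 and 125).

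The guidance genes kept nearly the same order of density in both animals. The lowest density in replicate 1 was 0.365 for Epha1 and the highest 212 for Efnb3; in replicate 2 the same genes marked the range, at 0.324 and 125. Across the 68 genes Pearson's r of log2 density was 0.955 and Spearman's rho 0.970, against 0.969 and 0.976 across all coding genes tested. These are descriptions across genes, which share their libraries and are not replicates. At least 10 footprints in both libraries were reached by 63 of the 68 genes, and by 61 when replicate 2 was thinned to the size of replicate 1.

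Among the semaphorins, the glycolipid-anchored Sema7a and the transmembrane class 6 and class 4 members carried the most footprints per kilobase, and the secreted class 3 members the fewest. Sema7a (ENSMUSG00000038264), which promotes axon growth through integrins, had 354 and 762 footprints in replicates 1 and 2. Its density was 95.05 and 72.6 (mean 83.8 ± 15.9, SD, n = 2). Sema6a (ENSMUSG00000019647), a transmembrane ligand of plexins A2 and A4, had 317 and 1303 footprints, a density of 54.0 and 78.7 (66.3 ± 17.5). The order of Sema7a and Sema6a was opposite in the 2 animals, so no order between them is given. Sema6d had densities of 38.7 and 53.3 (46.0 ± 10.3), below Sema6a in each library and with ranges that did not overlap.

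All 4 class 6 genes lay above the median coding gene in both libraries, while 1 of the 7 class 3 genes did. That gene was Sema3c, at 25.9 and 24.9, a ligand known from heart outflow and cortical axon development. Sema3a, the classical growth cone collapsing factor, had 76 and 298 footprints and a density of 17.6 and 24.4. The lowest semaphorin was Sema3g, with 11 and 21 footprints and a density of 2.515 and 1.70. The median of the class 3 genes was 11.6 and 14.7, and that of the 6 class 4 genes 33.6 and 29.7. Of the class 4 genes, 4 lay above the median coding gene in both libraries and 2, Sema4d and Sema4f, in 1 library. The remaining class 4 genes ranged in density from 29.7 (Sema4g) to 42.3 (Sema4c), over both libraries. The 2 class 5 genes, Sema5a and Sema5b, had densities of 22.4 and 21.0 and of 17.8 and 15.2.

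As a group the secreted ligands lay below the membrane-bound ones. The 13 secreted ligands (class 3 semaphorins, Slits and netrins) had a median density of 11.3 and 14.6, against 36.8 and 33.3 for the 21 membrane-bound ligands (other semaphorins and ephrins). Divided by the length of the whole longest transcript instead of its coding sequence, the medians were 4.41 and 5.07 against 18.3 and 16.4, in the same order.

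Plexins, the signalling receptors for semaphorins, were led by Plxna1. Plxna1 (ENSMUSG00000030084), a receptor partnering neuropilins for class 3 ligands and also binding class 6 ligands, had 625 and 1612 footprints. It held more footprints than any other of the 68 genes in replicate 1. Its density was 58.9 and 53.9 (56.4 ± 3.54, n = 2), above every other plexin in both libraries. Plxnb2, a class 4 semaphorin receptor of neural progenitors, followed at 34.6 and 34.0 (34.3 ± 0.444). Plxna2, which binds class 6 semaphorins, came next at 29.2 and 26.1, and Plxna4, at 29.2 and 22.04, could not be ordered against it. Plxnc1, a Sema7a receptor, had 18.4 and 16.8, and Plxnd1, a Sema3e receptor, had 15.95 and 16.4. Plxna3 had 17.45 and 14.48 and Plxnb1 14.9 and 12.9. The lowest was Plxnb3, a plexin of maturing oligodendrocytes, with 33 and 71 footprints and a density of 3.10 and 2.36.

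Both neuropilins lay above the median coding gene in both libraries. Nrp2, the co-receptor used by Sema3f, had 251 and 874 footprints, a density of 48.1 and 59.4 (53.75 ± 8.004). Nrp1, the co-receptor of Sema3a and of VEGF, had 163 and 380, a density of 31.5 and 26.05 (28.8 ± 3.85). Nrp2 was higher than Nrp1 in each animal, and it held 60.6% of neuropilin footprints in replicate 1 and 69.7% in replicate 2. Sema3f, the Nrp2 ligand, was itself low, at 11.6 and 14.7.

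Ephrins ran from the highest density of any ligand to near the lowest. Efnb3 (ENSMUSG00000003934), the transmembrane ephrin that keeps corticospinal axons from crossing the midline, had 404 and 674 footprints in replicates 1 and 2. Its density was 212 and 125 (168 ± 61.1, n = 2), the highest of all 68 genes in both libraries although the animals differed. It alone made up 50.1% of ephrin footprints in replicate 1 (95% interval 46.6 to 53.6%) and 40.1% in replicate 2 (37.8 to 42.5%). Efna3 (75.0 and 67.2), a glycolipid-anchored ephrin of neurons and astrocytes, ranked second in both. Efnb2 (55.6 and 52.6), a ligand of vessels and synapses, and Efna5 (56.1 and 52.0), which sets topographic maps in the visual system, could not be ordered.

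The other ephrins were lower. Efnb1, the X-linked ephrin of cortical progenitors, had 41.8 and 33.3, and Efna2, a second mapping ephrin, had 31.5 and 21.7. Efna4 had only 10 and 12 footprints, a density of 8.63 and 3.67. Efna1 (ENSMUSG00000027954), an ephrin prominent in endothelium, had 1 footprint in replicate 1 and 27 in replicate 2. Its density was 0.867 in one animal and 8.30 in the other, so no rank is given for it below Efna2.

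The ephrin median of 48.7 and 42.66 stood above every other family's in both libraries, except for the neuropilins (39.8 and 42.73) in replicate 2. This order depended on the length used. Ephrin coding sequences were the shortest of the 9 families, with a median of 690 nucleotides against 1413 for all coding genes tested, and their 3′ untranslated regions had a median of 1501. Per kilobase of whole transcript the ephrin median was 11.3 and 9.74, below the semaphorin median of 14.7 and 14.5 and close to the 10.3 and 11.4 of all coding genes tested. The counts cover whole transcripts, so footprints outside the coding sequence could not be set apart. Efnb3 kept a high place on this scale too, at 68.0 and 40.2, ranks 1 and 3 among the 68 genes.

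Among the Eph receptors, 4 genes of neuronal connectivity had the highest densities per kilobase of coding sequence. Epha5 (ENSMUSG00000029245), a receptor of retinal, hippocampal and cortical mapping, had 443 and 1689 footprints and a density of 76.0 and 103 (89.4 ± 19.0, n = 2). Epha4 (ENSMUSG00000026235), a receptor for both ephrin classes that holds corticospinal axons on their side of the midline, had 308 and 1105 footprints, a density of 55.7 and 70.9. Ephb2, a receptor of excitatory synapses, had 38.7 and 43.6, and Epha7, a cortical and thalamic mapping receptor, had 36.6 and 44.6. Epha5 was above Epha4, and Epha4 above Ephb2 and Epha7, in both animals with ranges apart, while Ephb2 and Epha7 changed order. Together Epha5 and Epha4 were the leading members of the family in each library, with Epha5 holding 23.96% and 28.7% of its footprints and Epha4 16.7% and 18.8%.

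Ephb1 (30.6 and 26.95), which guides ipsilateral retinal axons, came next. Ephb6, which lacks kinase activity, had 30.4 and 22.7, and Ephb3 had 16.35 and 13.96. Epha10, the other kinase-deficient member, had 13.45 and 9.18. Epha3, Epha8 and Epha6 lay between 6.63 and 10.7 over both libraries and could not be ordered. Ephb4, the venous receptor of Efnb2, had 6.09 and 5.91. The lowest were Epha2, an epithelial receptor, with 6 and 16 footprints, and Epha1, with 2 and 5 footprints and a density of 0.365 and 0.324. The 5 EphB genes had a median of 30.4 and 22.7 against 9.59 and 9.18 for the 9 EphA genes, even though the highest 2 genes of the family were EphA genes. Per kilobase of transcript the EphB median was also the higher, 11.6 and 11.9 against 6.14 and 5.69. The place of Ephb2 did depend on the length used. On the transcript scale it had 10.5 and 11.9, below Ephb1 (19.4 and 17.1) and Ephb6 (24.6 and 18.4) in both libraries. Epha7, at 16.3 and 19.8 there, was below Ephb1 and Ephb6 in replicate 1 only.

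Slit and Robo genes fell into clear orders that were the same in both animals. Slit1 (ENSMUSG00000025020), the Slit most restricted to the nervous system, had 223 and 612 footprints, a density of 26.0 and 25.3 (25.65 ± 0.484, n = 2). Slit2, a midline and forebrain repellent, had 11.3 and 14.6, and Slit3 had 5.04 and 5.40. The 3 ranges did not overlap. Robo2 (ENSMUSG00000052516) had 363 and 1171 footprints, a density of 42.95 and 49.2 (46.1 ± 4.39), and Robo1 (ENSMUSG00000022883) had 276 and 691, a density of 30.55 and 27.1. These are the principal neuronal Slit receptors, with Robo2 holding 54.4% and 60.5% of the family's footprints and Robo1 41.4% and 35.7%. Robo4, an endothelial receptor, had 22 and 57 footprints and a density of 3.65 and 3.36. Robo3, which mammalian commissural axons use to cross the midline at embryonic stages, had 6 and 17 footprints, a density of 0.764 and 0.768.

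Netrin footprints belonged almost entirely to 1 gene. Ntn1 (ENSMUSG00000020902), the canonical secreted attractant, had 151 and 356 footprints, which were 84.4% and 83.6% of the netrin footprints, and a density of 44.6 and 37.3 (40.9 ± 5.15). Ntn4, a laminin-binding basement membrane netrin, had 27 and 63, a density of 7.665 and 6.345. Ntn5 was barely detected, with 1 and 7 footprints. Of the receptors, Unc5c (ENSMUSG00000059921), a repulsive receptor, had 132 and 530 footprints and a density of 24.8 and 35.3 (30.0 ± 7.44). Dcc (ENSMUSG00000060534), the attractive receptor, had 144 and 452, a density of 17.8 and 19.8 (18.8 ± 1.43). Unc5c was above Dcc in both libraries on this scale, but the order depended on the length used. Per kilobase of whole transcript Unc5c had 7.33 and 10.4, below Dcc at 14.8 and 16.5. Unc5d (12.7 and 14.03), expressed by migrating upper-layer neurons, and Unc5a (11.1 and 14.7) followed without an order between them. Unc5b, also a receptor of endothelial tip cells, was lowest at 4.53 and 6.16.

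**Figure D2:**
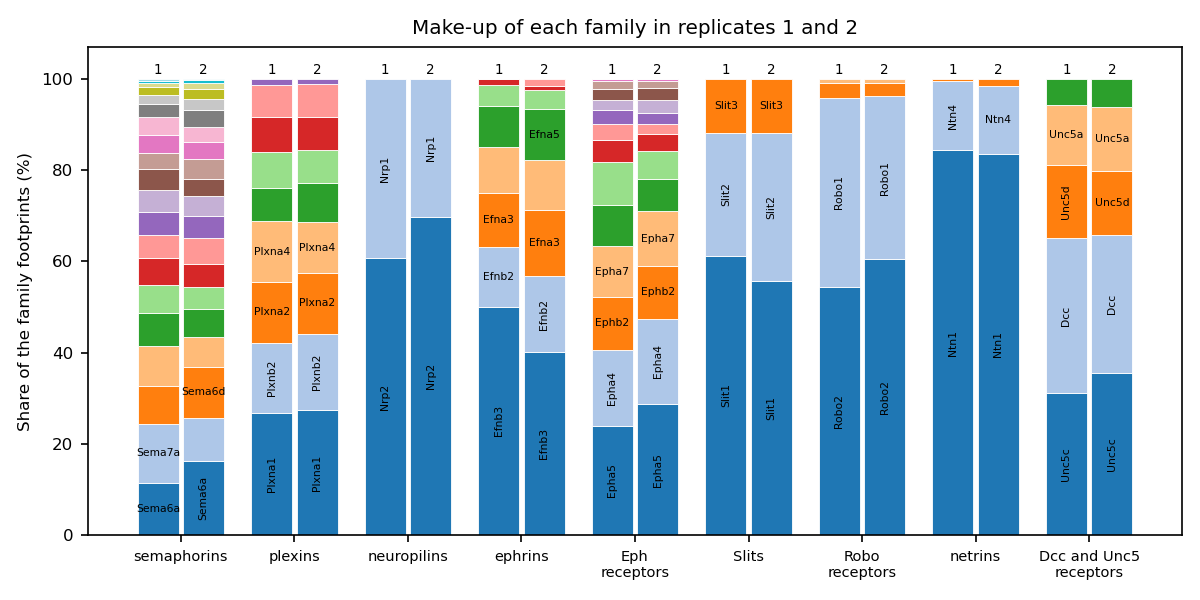
Share of each family's footprints held by each member, in percent, with replicate 1 as the left and replicate 2 as the right bar of each pair; segments are stacked from the largest mean share upwards, in the same colour for the same gene of a family, and larger shares are labelled. Ntn1 takes 84.4% and 83.6% of netrin footprints, whereas Plxna1 leads the plexins with 26.8% and 27.4%.

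Receptors held more footprints than ligands, but fewer per kilobase of coding sequence. Receptors took 58.0% of the members' footprints in replicate 1 (95% interval 57.05 to 59.0%) and 59.4% in replicate 2 (58.8 to 60.0%). Their coding sequences were longer, with a median of 3030 nucleotides against 2331 for ligands. When densities were summed instead of footprints, the receptor share was 40.4% and 44.3%. The median ligand had a density of 25.9 and 25.1 and the median receptor 17.6 and 16.6. Per kilobase of whole transcript those medians were 12.31 and 10.83 for ligands and 11.98 and 10.85 for receptors, so the higher ligand median was not seen in both libraries on that scale.

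The systems differed in this balance. In the semaphorin system the receptors (plexins and neuropilins) took 49.85% and 47.0% of footprints, and 34.35% and 32.75% of summed density. In the ephrin system the Eph receptors took 69.6% (67.8 to 71.4%) and 77.8% (76.8 to 78.7%), which was 40.65% and 50.4% of summed density. That share differed between the animals by more than counting error, and without Efnb3 it was 82.1% and 85.4%. Robo receptors took 64.7% and 63.8% of the Slit system, with almost the same shares of summed density, 64.8% and 64.0%. Dcc and Unc5 receptors took 70.3% (66.5 to 73.9%) and 77.8% (75.9 to 79.65%) of the netrin system, and 57.4% and 66.85% of summed density. Receptors thus held the larger part on both scales in both libraries for the Slit and netrin systems, and the smaller part of summed density for the semaphorin system. Such sums also follow the number of genes on each side. Ligands and receptors numbered 20 and 11 in the semaphorin system, 3 and 4 in the Slit system and 3 and 5 in the netrin system. Median densities of semaphorin ligands (25.7 and 25.2) and receptors (29.2 and 22.04) changed order between the libraries. Receptor medians were the higher in both libraries for Slit (17.1 and 15.25 against 11.3 and 14.6) and netrin (12.7 and 14.7 against 7.665 and 6.345).

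**Figure D3:**
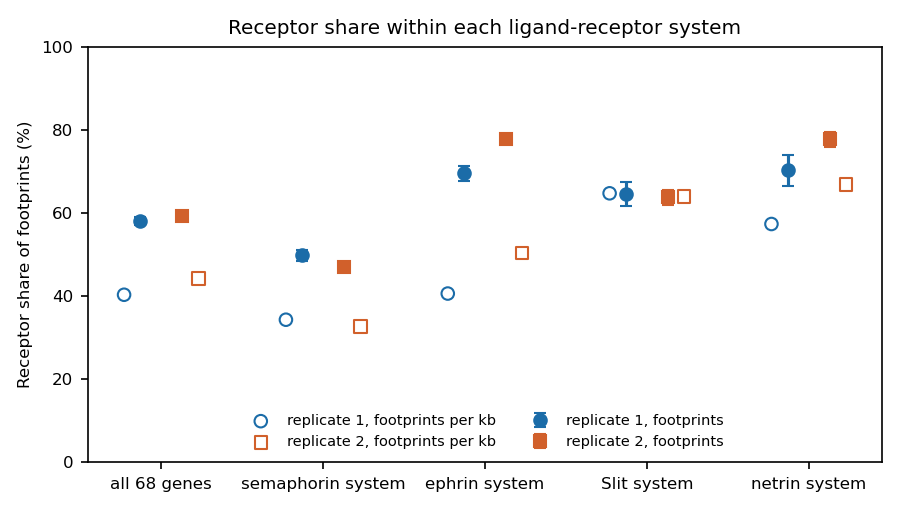
Receptor share, in percent, of all footprints of a ligand-receptor system, for replicate 1 (blue circles) and replicate 2 (orange squares); filled symbols count footprints and carry 95% Clopper-Pearson intervals, and open symbols sum footprints per kilobase of coding sequence. The filled and open symbols stand at almost the same height for the Slit system and lie furthest apart for the ephrin system, where filled shares are 69.6% and 77.8% and open shares 40.65% and 50.4%.

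The 2 libraries were then compared gene by gene. The test was a two-sided exact binomial on their effective sizes after TMM normalization (trimmed mean of M values), which lowers log2 ratios by 0.13 from the ratio of library totals, and by less for genes with few counts. Ratios set replicate 2 over replicate 1 after adding 0.5 CPM to each, and a gene was called at a Benjamini-Hochberg adjusted p under 0.05 over all 16427 genes tested. This compares 2 libraries within 1 group and covers counting error only. Of the 66 guidance genes whose counts averaged 10 or more, 19 were called, 28.8%, where 17.4% of all genes tested were. They were 5 genes higher in replicate 2 (7.58% of the 66, against 5.95% of all genes) and 14 lower (21.2% against 11.5%). Guidance genes had more counts than most, with a median mean count of 238 against 96.0. Among genes averaging 100 counts or more, 17 of 50 guidance genes were called, 34.0%, against 29.8% of all genes, a share near the background. With edgeR's exact test and its common dispersion none of the 66 was called, with 2 at an unadjusted p under 0.05, and 11 genes were called in the whole table. That dispersion was estimated from the same 2 libraries, so the difference tested is counted as spread and few calls are possible by construction.

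Most differences were small. The log2 ratio lay within 0.5 of 0 for 54 of the 66 genes (81.8%, against 74.0% of all genes), and its median absolute size was 0.30, against 0.29. The median signed ratio was -0.19 for the guidance genes and 0.01 for all genes, or -0.07 and 0.13 with library totals. The 5 to 14 split of higher and lower calls became 7 to 5 when library totals replaced TMM, with 12 guidance genes called, 10 of them shared. With totals 19.0% of all genes were called, 11.5% higher and 7.47% lower. The signs of the 19 called ratios were the same under both scalings. The 9 that were not called with library totals were Epha10, Nrp1, Ntn1, Plxna1, Plxna2, Plxna3, Robo1, Sema4b and Sema4g.

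The smallest adjusted p was that of Efnb3, which was lower in replicate 2 by a log2 ratio of -0.88 (exact binomial test, adjusted p = 4.8e-19). Efna1 was the only called gene past 2-fold, at 2.35 on the log2 scale (adjusted p = 0.042 by the exact binomial test). It rested on 1 footprint in replicate 1. Computed without the prior, its ratio was 8.81-fold and had a 95% counting interval of 1.45 to 361. The other 6 ephrins had ratios below 0 and were not called, and Efna4, the neighbour of Efna3 on the chromosome, stood at -1.18 on 10 and 12 footprints. Thus 2 of 8 ephrins were called, where 17.4% of all genes tested were.

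All 4 class A plexins were called lower in replicate 2 with TMM, of which Plxna4 alone was also called with library totals, and no plexin was called higher. Over all genes tested 11.5% were called lower and 17.4% in either direction. Among genes averaging 100 counts or more, as these 4 did, 29.8% were called, and a set of 4 is small against that background. Plxna4, a receptor for Sema3a and class 6 semaphorins, had a ratio of -0.53 (adjusted p = 4.1e-06, exact binomial test). Plxna3 stood at -0.39 (0.017 by the same exact test), Plxna2 at -0.29 (0.024) and Plxna1 at -0.25 (0.0026). The remaining 5 plexins had ratios between -0.50 and -0.08 with TMM, although Plxnd1 stood at 0.04 with library totals. Nrp1 was lower too, at -0.40 (exact binomial adjusted p = 0.026), while Nrp2 was at 0.18 and was not called.

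Semaphorins moved in both directions. Sema7a (-0.51, exact binomial adjusted p = 1.8e-06) and Sema6b (-0.51, 1.5e-04) were lower in replicate 2. Sema6b had 240 and 517 footprints, a density of 48.3 and 36.9. Sema4b, with 170 and 387 footprints, stood at -0.43 (exact binomial adjusted p = 0.011), and Sema4g, with 166 and 393, at -0.38 (0.036). Sema6a was higher, at 0.42 (exact binomial adjusted p = 4.3e-05), and so was its class 6 relative Sema6d, at 0.33 (0.012). Class 6 thus held 2 genes called higher and 1 called lower. None of the 7 class 3 semaphorins was called, and 5 of them had ratios above 0. In all 6 of the 20 semaphorins were called, where 17.4% of all genes tested were, and 29.8% of those averaging 100 counts or more. Classes this small cannot be told from that background.

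In the other systems 3 of 13 Eph receptors, 2 of 7 netrin system genes and 1 of 7 Slit system genes were called. Over all genes tested the share called was 17.4%, and 29.8% among those averaging 100 counts or more. Sets this small cannot be told from that background. Epha5 was higher in replicate 2, at 0.31 (exact binomial adjusted p = 6.5e-04). Ephb6, at -0.54 (8.0e-04 by the same exact test), and Epha10, at -0.67 on 65 and 125 footprints (0.022), were lower. Robo1 was lower at -0.30 (exact binomial adjusted p = 0.030) and Ntn1 at -0.38 (0.043), whereas Unc5c was higher at 0.38 (0.036). All 5 Dcc and Unc5 receptors had ratios above 0 under both scalings, from 0.02 for Unc5d to 0.38 for Unc5c, although only Unc5c was called. Efnb3, Ephb6, Plxna4, Sema6b and Sema7a were the 5 called genes that kept their call and direction in every one of 5 alternative ways of computing the ratio. These were DESeq2 size factors, library totals, removal of the density trend, coding transcripts alone and the leading transcript alone. Efnb3 and Sema7a have 1 annotated transcript, so the choice of transcripts could not change their counts. For Plxna4, 99.0% and 98.3% lay on the leading one. The edgeR exact test, which called none, was not among the 5.

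**Figure D4:**
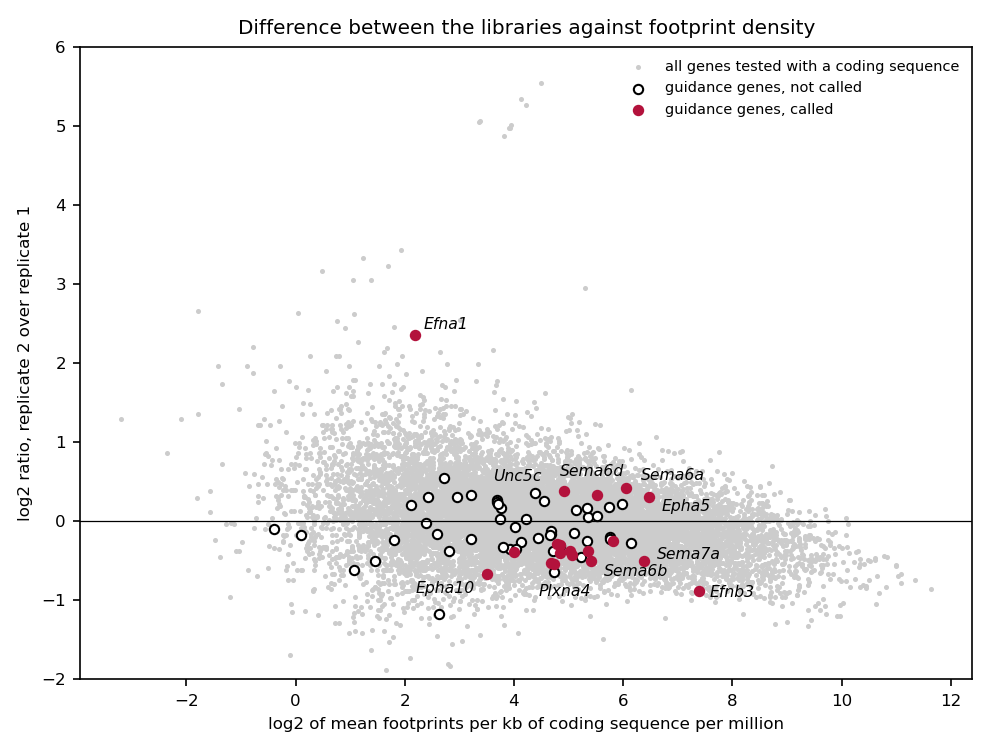
Log2 ratio of replicate 2 over replicate 1 after TMM normalization against log2 of mean footprint density, for all coding genes tested (grey), guidance genes that were not called (open circles) and the 19 called guidance genes (red). The called genes lie between -0.88 (Efnb3) and 0.42 (Sema6a), apart from Efna1 at 2.35.

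Markers of brain regions and cell types also differed between the libraries, and their part in these differences was not tested. The forebrain neuron genes Nrgn (-1.21), Neurod6 (-0.38) and Tbr1 (-0.37) were called lower in replicate 2, where 11.5% of all genes tested were. With library totals their ratios were -1.08, -0.26 and -0.25. They belong to a list of 6 forebrain genes, of which the others are not reported here. The 6 cerebellar and hindbrain genes summed to 0.0343% of footprints in replicate 1 and 0.0434% in replicate 2. Of these, Pcp2 (24 and 238 footprints) and Hoxb3 (only 2 and 38) were called higher, 33.3%, against 5.95% of all genes. Barhl1 (0.43), Zic1 (0.09), Cbln1 (-0.10) and En2 (-0.32) were not called. The 6 neuronal genes summed to 0.493% and 0.388%, with 4 called lower (66.7%, against 11.5% of all genes), or 3 with library totals. All 6 averaged 100 counts or more, and 29.8% of all such genes were called in either direction. Lower calls were not particular to neuronal genes. Of the 6 genes of meninges and fibroblasts 4 were called lower and 1 higher, and of the 6 oligodendrocyte genes 2 lower and 2 higher. Shares were 0.197% and 0.192% for 6 astrocyte genes, 0.0835% and 0.103% for 6 oligodendrocyte genes, and 0.0635% and 0.03375% for 5 choroid plexus genes. They were 0.0213% and 0.0224% for 6 microglial genes, 0.0312% and 0.03305% for 6 endothelial genes, and 0.1615% and 0.147% for 6 genes of meninges and fibroblasts. The brain label was checked against markers of other organs, of which 4 liver genes together had 1 and 6 footprints, with Alb at 0 in both. The 4 skeletal muscle genes had 145 and 298 footprints, nearly all on Acta1, skeletal alpha-actin, with 140 and 264. Counts of actin genes are uncertain, because short fragments can match several of them.

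Most footprints of the guidance genes were assigned to protein-coding transcripts. Of their 350 annotated transcripts, 13 had no footprint in either library, and Slit2 had the most transcripts, 23. Protein-coding transcripts held 86.4% and 85.0% of the footprints of the 68 genes, against 81.0% and 79.45% over all coding genes tested. Retained-intron transcripts held 7.94% and 8.54%, and transcripts annotated for nonsense-mediated decay 3.47% and 4.08%. Transcripts of a gene share exons, so a transcript's count is an assignment of shared fragments and not its own level.

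In 3 genes under 50% of the footprints lay on protein-coding transcripts in both libraries. Epha4 had 42.2% and 47.5% there, with 45.5% and 40.2% on transcripts annotated for nonsense-mediated decay. One of those, Epha4-002, has the full coding length of 2961 nucleotides, the same as the protein-coding Epha4-001. Sema3e had 47.2% and 47.0% on its coding transcript and 52.8% and 52.5% on the retained-intron transcript Sema3e-002. Plxnb3 had 36.4% and 38.0%. The leading transcript was not a coding one in Sema3e, in Ephb4 (a decay transcript with 29.4% and 24.7%) and in Robo3 (a retained-intron transcript with 16.7% and 41.2% of 6 and 17 footprints).

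Epha7, which is known to be made as full-length and truncated receptors, had footprints assigned to both kinds. Epha7-001, with a coding length of 2997 nucleotides, had 49 and 166 footprints. Epha7-002 and Epha7-003, whose coding lengths of 1833 and 1881 are 61.2% and 62.8% of it, together had 63 and 252. That was 30.7% of the gene's footprints in replicate 1 and 35.8% in replicate 2.

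All 68 symbols were found in the RefSeq gene table of GRCm38.p6, which was used only for names and neighbours. Adjacent protein-coding pairs were Efna1 and Efna3, Efna3 and Efna4, Robo1 and Robo2, Robo3 and Robo4, and Sema3a and Sema3d. Within the ephrin cluster the densities were far apart, with Efna3 at 75.0 and 67.2 beside Efna4 at 8.63 and 3.67. Robo1 and Robo2 both lay above the median coding gene in both libraries, and Robo3 and Robo4 both below it. Another annotated gene overlapped 36 of the 68, and for 6 it was a protein-coding one. Epha1, with 2 and 5 footprints, overlaps Zyx, which had 156 and 457. The use of strand in counting is not given in the sources used here, so reads of overlapping genes cannot be told apart.

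Other genes of guidance signalling stood above the ligands and receptors in density. The 25 co-receptors and other cues had a median density of 38.4 and 39.8, and the 62 intracellular effectors 34.15 and 34.9, against 23.6 and 22.4 for the 68 ligands and receptors. The ephrins (48.7 and 42.66) and neuropilins (39.8 and 42.73) were above both lists. Medians per kilobase of whole transcript were not computed for the lists. Among the co-receptors and other cues, Rtn4 (Nogo, a myelin-associated inhibitor of axon growth) had the highest density, 292 and 307.5. Islr2 followed at 273 and 267, and L1cam, an axonal adhesion molecule that joins semaphorin receptor complexes, at 164 and 170. By the exact binomial test 1 of these 25 genes was called higher in replicate 2 and 7 lower, 4.00% and 28.0%, against 5.95% and 11.5% of all genes. Of the 25, however, 23 averaged 100 counts or more. In either direction 32.0% of the 25 were called, near the 29.8% of all genes averaging that many. With library totals 2 were higher and 4 lower. The lower ones included Rgmb (-0.70 on the log2 scale), a ligand of neogenin, Rtn4r (-0.62), the Nogo receptor, Neo1 (-0.32), neogenin itself, and Chl1 (-0.29), a relative of L1cam.

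The effectors held the highest densities of the pathway. Dpysl3, a collapsin response mediator protein that links semaphorin signals to microtubules, had 972 and 726. Its relative Crmp1 had 770 and 601, and Cdc42, a small GTPase of the actin cytoskeleton, had 619 and 567. Of 61 effectors tested, 3 were called higher in replicate 2 and 13 lower by the exact binomial test, 4.92% and 21.3%, against 5.95% and 11.5% of all genes. With library totals 9 were higher and 6 lower, and of the 61 effectors 56 averaged 100 counts or more. With TMM 26.2% of the 61 were called in either direction, against 29.8% of all genes averaging 100 counts or more. The 5 with the smallest adjusted p were Dpysl2 (log2 ratio -0.93), Dpysl3 (-0.55), the actin-severing Cfl1 (-0.94), Crmp1 (-0.48) and Dpysl5 (-0.47), all lower. All 5 were among the highest of their list, and across all coding genes tested the ratio fell with density (Spearman's rho -0.26, a description across genes). Across the 66 guidance genes the same rho was -0.08.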

How the data were processed

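The deposited table gives raw counts for each transcript in the 2 libraries, beside annotated lengths. Per the submitters' processing notes, Trimmomatic 0.36, Bowtie2 2.2.6 and SAMtools were used with GRCm38.p4. The counting rule, annotation release, strand setting and handling of fragments that match several places are not given in the sources used here.

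Counts of a gene's transcripts were summed. Genes averaging 10 or more counts were tested between the libraries with a two-sided exact binomial test (scipy 1.17.1) on TMM effective sizes (edgeR 4.0.16), Benjamini-Hochberg adjusted. Log2 ratios used a prior of 0.5 CPM. The design has 1 group, so no quasi-likelihood test could be fitted, and p-values cover counting error only. PCR copies are not independent molecules. The TMM factors were 0.957 and 1.04. Densities used library totals. The scripts were tested on simulated data.

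Values in both libraries were named for the 3 highest and the lowest member of each family by density, every called member, and members led by a transcript that is not protein coding. From each other pathway list the 3 highest and up to 5 called genes were named, and other genes were added for completeness after their values were seen. Members, lists and tests were chosen with earlier results of these data known. Alternatives were DESeq2 1.42.0 size factors, library totals, other count minimums, coding transcripts alone, the leading transcript, removal of the density trend, edgeR's exact test, and other lengths. Matched RNA levels, protein sequences and a genome were not used here. The summed value of 1 marker list is not reported here.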

Additional observations from a re-analysis of the deposited data

How the results depend on the processing

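Of the 19 called guidance genes, all kept their call with DESeq2 size factors, 17 after removal of the density trend, 13 on protein-coding transcripts alone, 10 with library totals and 6 of the 18 testable ones on the leading transcript alone; no ratio changed sign. The number called was 12 with library totals, 6 on the leading transcript (fewer counts enter) and 0 with edgeR's exact test and common dispersion (2 at an unadjusted p under 0.05). The members' share of 0.526% was 0.596% on coding transcripts alone and 0.537% without the 10 most abundant genes. The receptor share of all members, 58.7%, was 60.6% on leading transcripts and 42.3% per kilobase. For semaphorins, at 48.4%, it was 51.0% on coding transcripts, 59.4% on leading transcripts and 33.5% per kilobase; for ephrins, at 73.7%, 53.9% on leading transcripts, 45.5% per kilobase and 83.8% without Efnb3 (chosen after seeing the data). The Slit share of 64.3% was 65.2% on coding and 74.7% on leading transcripts, and the netrin share of 74.1% was 62.1% per kilobase.

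Family median densities moved with the length used. Per kilobase including untranslated regions they were 14.6 for semaphorins, 12.5 for plexins, 17.9 for neuropilins, 10.5 for ephrins, 8.92 for Eph receptors, 6.03 for Slits, 10.7 for Robo receptors, 3.63 for netrins and 8.61 for Dcc and Unc5 receptors. On coding transcripts alone the median density was 19.3 for semaphorins, 10.5 for Eph receptors and 7.24 for Slits. Divided by the coding sequence of the leading transcript it was 25.9 for semaphorins, and among members averaging 10 or more counts it was 24.0 for netrins, against 7.0 over all 3, since Ntn5 then drops out. The cause of these shifts was not tested beyond the change of length or transcripts itself. No paired analysis was possible because there is 1 group. With 2 libraries of 1 group, differences between animals and technical differences cannot be told apart, and genes with few footprints, such as Efna1, Efna4, Epha1, Epha2, Ntn5 and Robo3, are limited by depth.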
